A study of Mus musculus with 6 samples.

Results

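The sarcomere is the contractile unit of heart muscle, and its proteins were followed here at the RNA level through 10 genes: Myh6, Myh7, Myl2, Myl3, Mybpc3, Tnnt2, Tnni3, Tnnc1, Tpm1 and Ttn. All probe sets annotated to 1 symbol only, that symbol being 1 of these genes, were taken from the array's value table. These are 10 of 18194 genes with a probe set of their own, and the rule gave 23 of 45101 probe sets: 6 for Ttn, 4 for Tpm1, 3 each for Myl3 and Tnnt2, 2 for Myh6 and 1 for each of the other genes. A probe set is a group of short probes that together report 1 transcript region, and each was kept apart because probe sets of 1 gene can read different transcripts. All 23 passed the filter on dim signals.

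The 6 Affymetrix arrays measured total RNA from mouse hearts, 2 arrays in each of 3 groups. The treated group was apoE-deficient and had received rosiglitazone, an anti-diabetic PPAR-gamma agonist, at 30 mg/kg per day for 2 months from the age of 6 months, and its tissue is labelled failing heart. The untreated group was apoE-deficient with no treatment, and the control group was wild type. All mice were 8 months old, of B6 background, and ate a chow with 7% fat and 0.15% cholesterol, so the treated and untreated groups share the loss of apoE and all 3 groups share age, background and diet. The labels give heart tissue and name no chamber. They also leave unsaid whether replicate arrays stand for different mice, and p-values here measure the spread of the arrays alone, part or all of which could be technical. The treated hearts differ from the untreated ones in the drug and in the labelled failure, which cannot be told apart here.

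In the sarcomere, thick filaments of myosin pull on thin filaments of actin, which carry tropomyosin and the troponin complex that responds to calcium, while titin spans from the Z-disc to the M-band as a spring. The ventricle of the adult mouse uses mainly alpha-myosin heavy chain, the product of Myh6, whereas beta-myosin heavy chain, the product of Myh7, is the fetal form and a common marker of the stressed rodent heart. Ventricular muscle uses the light chains encoded by Myl2 and Myl3, and atrial muscle those encoded by Myl7 and Myl4.

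The deposited signals were taken as not scaled between arrays, because their trimmed means differed. The scaling settings used to make them are not given. These means ran from 125.64 to 130.354 in the untreated group, from 148.895 to 175.462 in B6 and from 263.43 to 340.66 in the treated group. Signals were therefore quantile-normalized, which gives every array the same distribution, and are reported as log2 of the signal plus a pseudocount of 11.104. Differences were tested with limma over 27022 probe sets, and a probe set passed when its Benjamini-Hochberg adjusted p was under 0.05. Apoe checked the labels: its normalized log2 signal was 11.86 and 11.91 on the B6 arrays and between 5.24 and 6.29 on the 4 apoE-deficient arrays. The normalized signals of markers of other cells moved with the groups, which touches every comparison with the treated hearts. The summed signal of the atrial muscle markers was 30833 to 31303 in treated, 9687 to 9835 in untreated and 19593 to 19817 in B6 hearts, and 6 of the 8 tested markers rose and 0 fell from untreated to treated. The sum of the white fat markers was 27953 to 28782, 9885 to 10079 and 10824 to 11371 in the same order, and that of the lung and airway markers 20493 to 21141, 6434 to 6484 and 4606 to 4745. In untreated and B6 hearts the lung and airway sum came almost wholly from Lyz1. Its log2 signal was 12.63 and 12.62 in untreated and 12.14 and 12.17 in B6 hearts, where the other tested markers of that list read 6.06 or lower. From untreated to treated hearts 4 of the 7 tested lung and airway markers rose and 1, Lyz1, fell. Of the 7 tested white fat markers 5 rose and 1 fell. Among the other lists, 5 of 7 brown fat markers rose and 1 fell, and 6 of 8 smooth muscle markers rose and 1 fell. Of 8 fibroblast markers 6 rose and 0 fell, with sums of 24506 to 24625 in treated, 18992 to 19180 in untreated and 21341 to 21746 in B6 hearts. Of 7 skeletal muscle markers 2 rose and 0 fell, and of 3 red blood cell markers 0 rose and 2 fell. The working heart muscle markers, which share Myh6 and Ttn with the genes described here, summed to 103086 to 104375, 99247 to 99768 and 103693 to 104173. These bright markers depended on the scaling between arrays. From untreated to treated, 3 of 7 rose and 3 fell after quantile normalization, but 0 rose and 7 fell when scaled to trimmed means (median -0.59). From B6 to treated the counts were 2 and 2, and 0 and 7 (median -0.55). In bulk tissue fewer cells of a type and less RNA per cell cannot be told apart, and the part of these other cells in the results was not tested.

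The signal for beta-myosin heavy chain in treated hearts was 0.501 times that in untreated ones, the probe sets that passed for the myosin light chains and troponin I were lower too, and probe sets of tropomyosin and of titin moved in opposite directions within 1 gene. The fall of Myh7 was the larger after quantile normalization and cyclic loess, but with scaling to trimmed means, spiked-in controls or array medians Myl2 and Myl3 1428266_at fell by more. The opposite directions within titin depended on the scaling too, unlike those within tropomyosin. With trimmed means the 2 titin probe sets that had risen, 1427445_a_at and 1444083_at, differed by -0.25 and -0.11. No titin probe set passed in 1 direction under all 5 scalings in this comparison of treated with untreated hearts. From untreated to treated apoE-deficient hearts, 14 of the 23 probe sets passed, against 19.8% of all probe sets tested: 6 rose and 8 fell, against 10% and 9.81%. Their median log2 difference was -0.067, beside -0.016 over all tested. From B6 to untreated apoE-deficient hearts 5 passed, against 7.06% of all tested, of which 0 rose and 5 fell, against 3.17% and 3.90%, with medians of -0.052 and -0.0064. From B6 to treated hearts 11 passed, against 15.0% of all tested, of which 0 rose and 11 fell, against 7.46% and 7.58%, with medians of -0.14 and -0.023. The treated arrays lay wholly above the untreated ones for 8 probe sets and wholly below for 11, against 28.6% and 31.4% of all tested. The untreated arrays lay wholly above those of B6 for 6 and wholly below for 11, against 24.3% and 25.9%, and the treated arrays above those of B6 for 2 and below for 15, against 26.4% and 31.1%. The comparisons share arrays, so their counts are not independent of each other. Most of these calls rest on the modelled relation of spread to brightness: with limma's intensity trend left out, 2 of the 14 calls between treated and untreated hearts passed (Myh7 lower, Tnnt2 1440424_at higher), 0 of 5 between untreated and B6, and 1 of 11 between treated and B6 (Myh7), against 6.12%, 0.0370% and 2.32% of all tested.

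**Figure D1:**
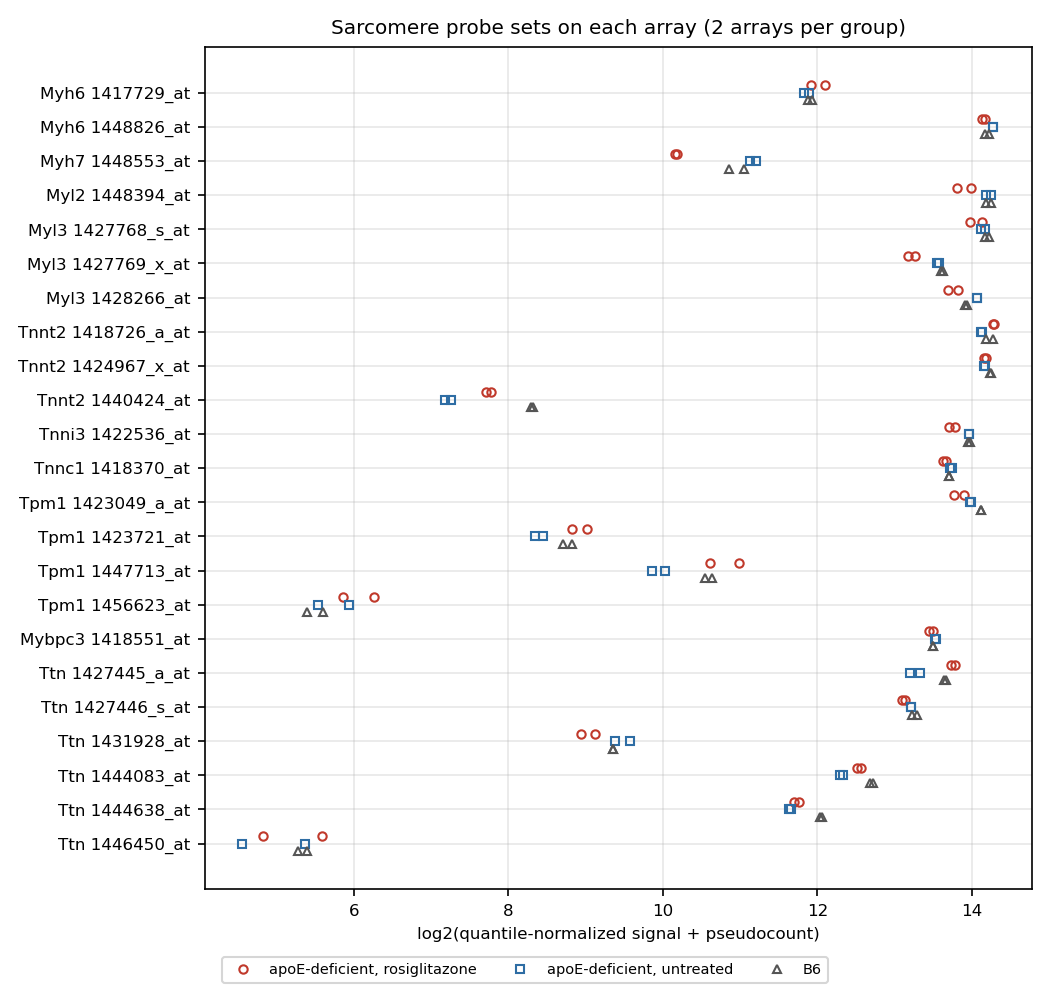
Normalized log2 signal of the 23 sarcomere probe sets (horizontal axis, log2 of quantile-normalized signal plus pseudocount) on each of the 6 arrays; circles are rosiglitazone-treated apoE-deficient, squares untreated apoE-deficient and triangles B6 hearts. The treated arrays of Myh7 lie at 10.16 and 10.18, below the other 4 at 10.86 to 11.21, while for Tnnt2 1440424_at the untreated arrays are lowest at 7.17 and 7.26.

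Of the thick filament genes, Myh7 is described first. Its normalized log2 signal (probe set 1448553_at) was 10.16 and 10.18 in treated, 11.12 and 11.21 in untreated and 11.05 and 10.86 in B6 hearts. Both treated arrays lay below all 4 others, and the untreated and B6 arrays did not overlap, with the untreated ones higher. The level in treated hearts was 0.501 times that in untreated ones (log2 difference -0.997 ± 0.07 SE, n = 2 and 2 arrays, limma adjusted p = 2.35e-05) and 0.582 times that in B6 hearts (-0.78 ± 0.07, limma adjusted p = 0.000114). The difference between untreated and B6 hearts, 0.21 ± 0.07, did not pass (limma adjusted p = 0.100). When each array was left out in turn, both falls kept their call, at -1.04 to -0.95 against untreated and -0.88 to -0.69 against B6. The deposited, unscaled signals were 1936 and 1529 in treated, 1473 and 1620 in untreated and 1896 and 1404 in B6 hearts, so the fall is a fall relative to the other probe sets of an array: by brightness Myh7 ranked 2726 and 2686 in treated, 1353 and 1270 in untreated and 1430 and 1645 in B6 hearts.

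The probe sets of Myh6 differed from each other. 1448826_at, among the brightest on every array with a rank of 2 to 9, read 14.13 and 14.17 in treated, 14.27 and 14.27 in untreated and 14.22 and 14.17 in B6 hearts. Its fall from untreated to treated was small and passed (-0.12 ± 0.03, limma adjusted p = 0.0218), but was lost without treated array 1 or without either untreated array, and without the filter on dim probe sets. After quantile normalization a difference at this height reflects rank alone, here 9 and 7 on the treated arrays against 2 on both untreated ones. 1417729_at, dimmer, read 12.10 and 11.92, 11.82 and 11.89, and 11.94 and 11.88 in the same order, and its difference of 0.15 ± 0.06 did not pass (limma adjusted p = 0.114). This last value passed, at 0.24, without treated array 2.

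The proportion of the 2 heavy chains was therefore read against each Myh6 probe set, as the log2 ratio of Myh7 to Myh6 in deposited signals, which no scaling of a whole array can change. Against the brighter 1448826_at the ratio was -3.45 and -3.66 in treated, -3.49 and -3.36 in untreated and -3.39 and -3.67 in B6 hearts. The groups overlapped, and the changes of -0.13 (treated minus untreated), 0.10 (untreated minus B6) and -0.026 (treated minus B6) were within the spread of the arrays (exact permutation tests, two-sided, p = 0.667, 0.667 and 1). Against 1417729_at it was -1.85 and -1.69 in treated, -0.77 and -0.74 in untreated and -0.90 and -1.07 in B6 hearts. Here the groups did not overlap: the ratio was lower by 1.02 in treated than in untreated hearts (change -1.02) and lower than in B6 (change -0.78), and higher by 0.23 in untreated than in B6. Each of these changes has an exact two-sided permutation p of 0.333, the smallest that 2 against 2 arrays can give. In deposited signals, whether the proportion of the heavy chains differed between groups thus depends on the Myh6 probe set. It depends on the processing too, because quantile normalization is not a single factor per array. After it, the change from untreated to treated hearts was -0.89 with 1448826_at and -1.16 with 1417729_at.

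**Figure D2:**
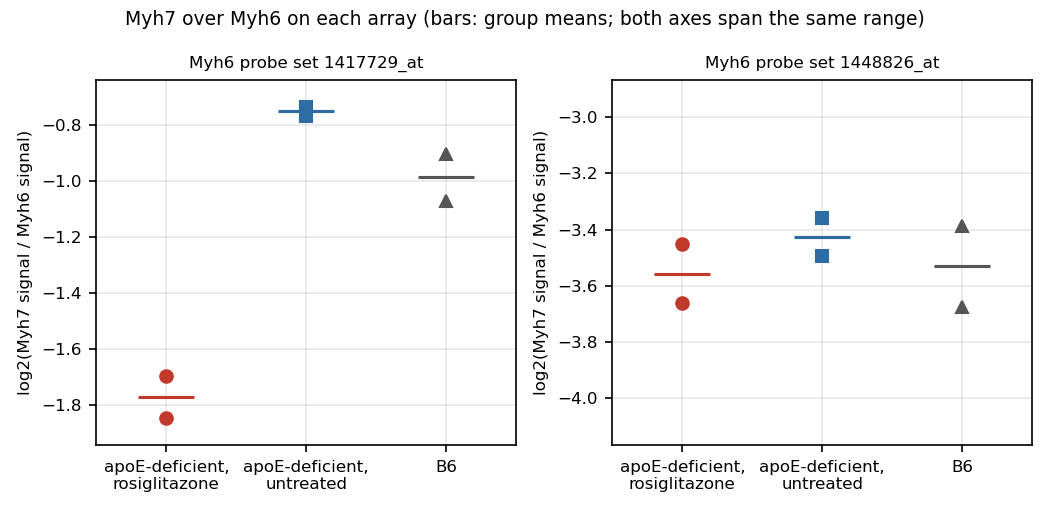
The log2 ratio of the Myh7 signal to the Myh6 signal on each array, from deposited signals, with Myh6 read by 1417729_at (left) or 1448826_at (right); points are arrays, bars are means of 2, and both vertical axes span the same range. On the left the treated arrays (-1.85 and -1.69) lie below all others, and on the right the 3 groups overlap between -3.67 and -3.36.

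Myh6 and Myh7 lie on chromosome 14 in the RefSeq annotation, both on the minus strand. The 250 bases before an annotated start (RefSeq, GRCm38.p6) are shown for the 2 heavy chains, whose probe sets differed in direction or size, and for Myl3, whose probe sets all had lower means in treated hearts. Of the 2 windows of Myh7, the one farther upstream is shown. Capitals mark motifs found on either strand: CATTCC (the MCAT element bound by TEAD factors, GGAATG on the other strand), GATAA (bound by GATA factors) and the CArG element bound by SRF.
Myh7, chr14:54994627-54994876, minus strand: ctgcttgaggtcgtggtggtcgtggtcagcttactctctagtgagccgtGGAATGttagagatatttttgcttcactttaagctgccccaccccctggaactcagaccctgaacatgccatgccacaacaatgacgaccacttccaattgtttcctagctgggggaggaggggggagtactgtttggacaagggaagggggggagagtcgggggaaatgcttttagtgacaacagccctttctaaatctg
Myh6, chr14:54966608-54966857, minus strand: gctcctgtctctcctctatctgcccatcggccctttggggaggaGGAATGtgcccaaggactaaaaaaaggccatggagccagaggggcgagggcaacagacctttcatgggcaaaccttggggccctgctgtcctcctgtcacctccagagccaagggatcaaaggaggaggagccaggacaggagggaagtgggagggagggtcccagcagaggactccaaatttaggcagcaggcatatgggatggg
Myl3, chr9:110763428-110763677, plus strand: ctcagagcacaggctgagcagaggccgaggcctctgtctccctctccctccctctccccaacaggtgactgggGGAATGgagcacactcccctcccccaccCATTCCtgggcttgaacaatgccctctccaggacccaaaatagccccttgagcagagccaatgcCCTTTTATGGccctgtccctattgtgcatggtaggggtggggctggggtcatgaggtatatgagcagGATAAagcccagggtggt
Over windows from 250 bases before to 50 after each annotated start, with motifs searched on both strands, all 10 genes matched, with 13 windows. CATTCC was in 7 of the 13, 1 window each of Myh6, Myh7, Myl3, Tnnt2, Tnnc1, Tpm1 and Ttn, and in 14.7% of all 32851 windows of the table. GATAA was in 5 of 13 and in 25.4% of all windows, the MEF2 motif in 2 and in 3.19%, and the CArG element in 1 and in 1.63%. AGGTCA, a half-site of thyroid hormone and other nuclear receptors, was in 1 of 13 and in 16.3%, and TATAAA, which can overlap the MEF2 motif, in 2 and in 13.6%. The genes with CATTCC include probe sets that rose and probe sets that fell, and a match describes the letters only.

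The ventricular light chains were lower in the treated hearts. Myl2, the regulatory light chain, read 13.81 and 14.00 in treated, 14.19 and 14.25 in untreated and again 14.19 and 14.25 in B6 hearts. The treated arrays lay below the other 4, with -0.32 ± 0.06 against either group (limma adjusted p = 0.00392 against untreated and 0.00492 against B6, the latter lost without B6 array 2). Quantile normalization allows the brightest probe sets only a few values, so at this height a difference reflects rank alone: Myl2 was the 43rd and 20th brightest probe set on the treated arrays and the 6th and 3rd on both the untreated and the B6 arrays.

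Myl3, the essential light chain, was read by 3 probe sets. 1427769_x_at was 13.18 and 13.26 in treated, 13.56 and 13.58 in untreated and 13.63 and 13.60 in B6 hearts, and 1428266_at 13.69 and 13.82, 14.07 and 14.07, and 13.91 and 13.94 in the same order. Both had the treated arrays below the other 4, with differences of -0.35 ± 0.04 (limma adjusted p = 0.000250) and -0.32 ± 0.04 (0.000810) against untreated, and -0.39 ± 0.04 (0.000159) and -0.17 ± 0.04 (0.0218) against B6. The last of these was lost without either B6 array and without the filter on dim probe sets. The brightest, 1427768_s_at, read 13.98 and 14.13 in treated, 14.12 and 14.17 in untreated and 14.17 and 14.22 in B6 hearts, and passed neither against untreated (-0.091) nor against B6 (-0.14). Without treated array 2 both passed, at -0.17 and -0.22. The suffix x in a probe set's name warns that some of its probes can also bind related transcripts. Mybpc3, the myosin-binding protein that ties the thick filament, varied little after quantile normalization: it read 13.49 and 13.44, 13.53 and 13.54, and 13.50 and 13.49, and passed in no comparison.

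Among the thin filament genes, troponin I and troponin C had lower means in treated hearts, as the light chains did. Tnni3, the inhibitory subunit, read 13.71 and 13.78 in treated, 13.97 and 13.96 in untreated and 13.98 and 13.95 in B6 hearts. The treated arrays were again the lowest, with differences of -0.22 ± 0.03 against untreated (limma adjusted p = 0.00181) and -0.22 ± 0.03 against B6 (0.00206), while untreated and B6 arrays overlapped. Tnnc1, the calcium-binding subunit, read 13.67 and 13.62, 13.74 and 13.72, and 13.71 and 13.71, and its differences of -0.084 and -0.059 did not pass (limma adjusted p = 0.0873 and 0.256). Without treated array 1 the first of these passed, at -0.11.

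Troponin T, the tropomyosin-binding subunit encoded by Tnnt2, was read by 2 very bright probe sets and 1 dim one. The dim probe set 1440424_at read 7.71 and 7.78 in treated, 7.26 and 7.17 in untreated and 8.29 and 8.32 in B6 hearts. The 3 groups did not overlap: it was 0.470 times as high in untreated as in B6 hearts (-1.09 ± 0.12, limma adjusted p = 0.00141), and in treated hearts higher than in untreated (0.53 ± 0.12, 0.0134) and lower than in B6 (-0.56 ± 0.12, 0.0123). The rise was lost without either treated array, and the last difference without any 1 of the 4 treated and B6 arrays and with spike-in or array-median scaling. The bright 1418726_a_at read 14.29 and 14.27, 14.13 and 14.12, and 14.27 and 14.19, a difference of 0.16 between treated and untreated (limma adjusted p = 0.00895) that turned sign under every other scaling and was lost without untreated array 2. That difference too reflects rank alone, 1 and 2 on the treated arrays against 9 and 10 on the untreated ones. After quantile normalization 1424967_x_at stayed within 14.15 to 14.25 on all arrays and passed nowhere. Under the other 4 scalings it passed as lower in treated hearts than in untreated and in B6. With the trimmed mean these differences were -0.87 and -0.80.

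Tropomyosin, the Tpm1 product that lies along actin, showed a wider split between probe sets than the other genes in both comparisons with treated hearts. The gap between its highest and lowest difference was 1.01 against untreated and 0.851 against B6. The upper end of the latter was the dim 1456623_at, which did not pass (0.56 ± 0.30, limma adjusted p = 0.281). The next highest Tpm1 value there was 0.20, beside a lowest of -0.29 and a Tnnt2 gap of 0.613, so this ranking rests on 1456623_at. Between untreated and B6 hearts the gap of Tnnt2, 1.01, exceeded that of Tpm1, 0.888. The bright 1423049_a_at read 13.77 and 13.89 in treated, 13.98 and 14.00 in untreated and 14.12 and 14.12 in B6 hearts. It was lowest in the treated hearts, with differences of -0.29 ± 0.04 against B6 (limma adjusted p = 0.00153) and -0.16 ± 0.04 against untreated (0.0250), the latter lost without treated array 1, without either untreated array and without the filter on dim probe sets. In contrast, 1447713_at read 10.98 and 10.61, 9.86 and 10.03, and 10.64 and 10.55, and was 1.81 times as high in treated as in untreated hearts (0.85 ± 0.11, limma adjusted p = 0.000830). It was lower in untreated than in B6 hearts (-0.65 ± 0.11, 0.0112, lost without untreated array 1 or either B6 array), and treated and B6 arrays overlapped (0.20, 0.283), though without treated array 2 this difference passed at 0.39. 1423721_at took the same course, with 9.01 and 8.82, 8.34 and 8.44, and 8.71 and 8.82: it rose by 0.52 ± 0.10 from untreated to treated (limma adjusted p = 0.00643, lost without treated array 1), and its value of -0.38 for untreated minus B6 did not pass (0.0593). The dimmest, 1456623_at, lay between 5.40 and 6.27 and passed nowhere, though both treated arrays were above those of B6.

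Titin, the product of Ttn, was read by 6 probe sets. The brightest, 1427445_a_at, read 13.78 and 13.73 in treated, 13.20 and 13.33 in untreated and 13.64 and 13.67 in B6 hearts. The untreated arrays were the lowest, with a difference of -0.39 ± 0.04 from B6 (limma adjusted p = 0.00168), and treated hearts were 0.49 ± 0.04 above untreated ones (0.000104), a difference that turned sign under 2 other scalings and was lost with array medians. 1444083_at read 12.51 and 12.56, 12.30 and 12.33, and 12.68 and 12.71. Its groups did not overlap, in the same order as for Tnnt2 1440424_at, with -0.39 ± 0.04 for untreated minus B6 (limma adjusted p = 0.000734), 0.22 ± 0.04 for treated minus untreated (0.00300) and -0.16 ± 0.04 for treated minus B6 (0.0187). With spike-in scaling the differences of treated from untreated and from B6 were lost, and with the trimmed mean the former turned sign. The last was also lost without treated array 1 or either B6 array. 1444638_at read 11.70 and 11.77, 11.64 and 11.66, and 12.03 and 12.06, lower than in B6 in both untreated (-0.40 ± 0.04, limma adjusted p = 0.00130) and treated hearts (-0.31 ± 0.04, 0.00130, lost with spike-in scaling). These 3 probe sets were all lower in untreated apoE-deficient than in B6 hearts, a fall that passed in 4 of 5 scalings and was lost with spike-in scaling.

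The other 3 titin probe sets gave no such order. 1427446_s_at read 13.10 and 13.14 in treated, 13.21 and 13.21 in untreated and 13.23 and 13.29 in B6 hearts, and passed in 1 comparison, treated minus B6 (-0.14 ± 0.03, limma adjusted p = 0.0235, lost without treated array 1, B6 array 2 or the filter on dim probe sets). 1431928_at read 8.94 and 9.12, 9.57 and 9.38, and 9.35 and 9.35. It was lower in treated than in untreated hearts (-0.44 ± 0.09, limma adjusted p = 0.00974, lost without treated array 1 or untreated array 1 and with spike-in or array-median scaling). Its difference from B6 (-0.32 ± 0.09, 0.0483) passed in 1 of 5 scalings, was lost under 10 alternatives in all, among them a pseudocount of 1, no filter and leaving out treated array 1 or either B6 array, and turned sign with spike-in scaling. The dimmest, 1446450_at, spread over 4.56 to 5.59 with overlapping groups and passed nowhere.

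**Figure D3:**
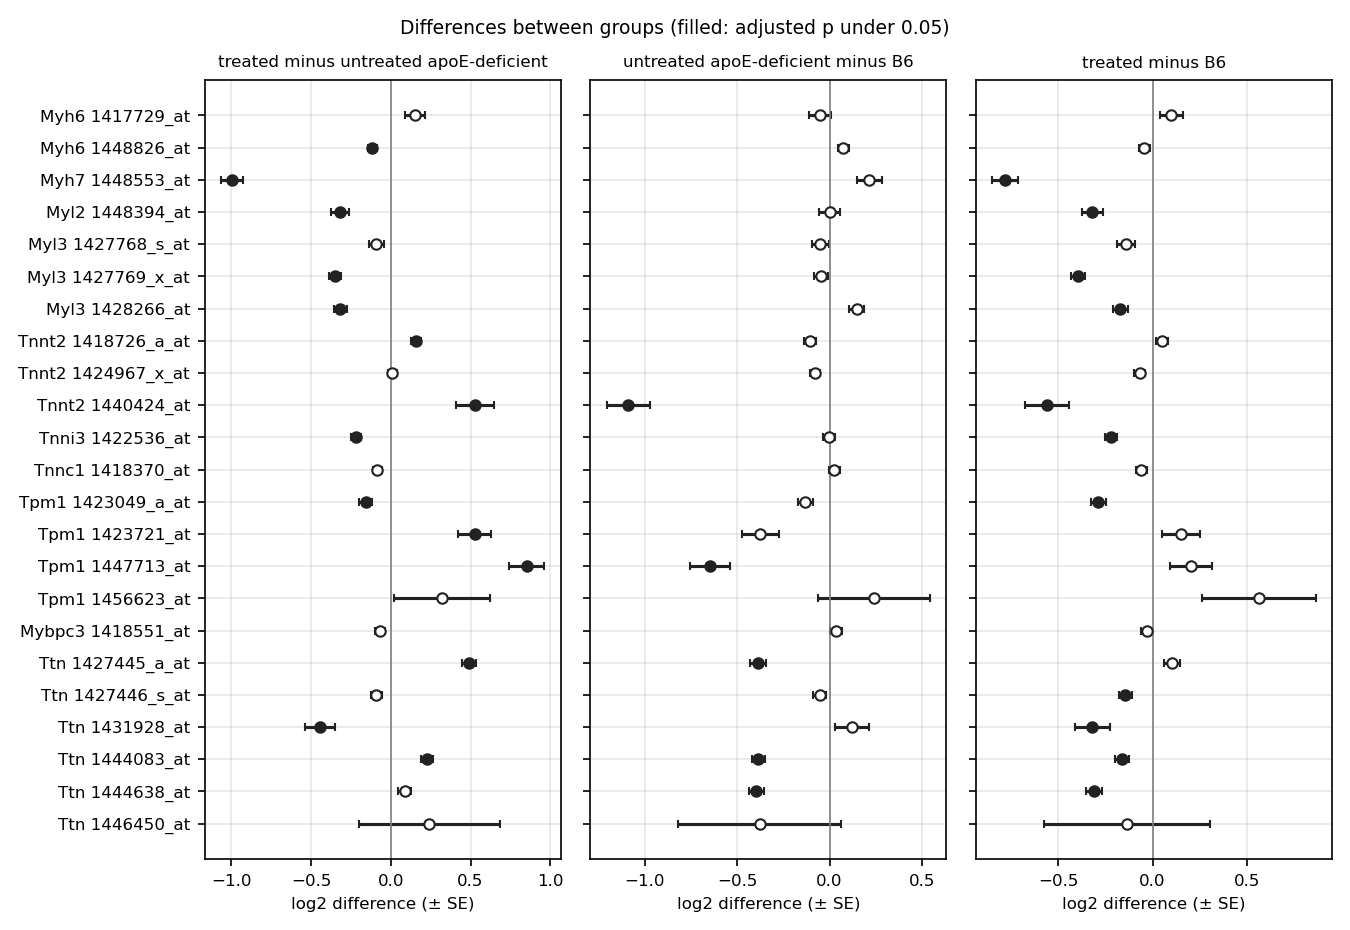
Log2 differences (horizontal axes, ± SE from limma) of the 23 probe sets in the 3 comparisons, from quantile-normalized signals; filled points passed at an adjusted p under 0.05. Myh7 is the farthest below 0 where treated hearts are compared (-0.997 and -0.78), and Tnnt2 1440424_at (-1.09) where untreated apoE-deficient hearts are compared with B6.

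How much the members fell depended on the scaling between arrays, and for the bright probe sets strongly so. The quantile results were set beside scaling to the trimmed mean, to 18 hybridization controls spiked into every sample, to the array medians, and by cyclic loess. Between treated and untreated hearts, 7 of the 23 probe sets fell under all 5 scalings, against 2.35% of all tested: Myh6 1448826_at, Myh7, Myl2, Myl3 1427769_x_at and 1428266_at, Tnni3 and Tpm1 1423049_a_at. Another 3 rose under all 5, against 8.91% of all tested (Tnnt2 1440424_at, Tpm1 1423721_at and Tpm1 1447713_at). Tnnt2 1418726_a_at and Ttn 1427445_a_at passed in both directions, as did 0.313% of all tested. Over the 5 scalings Myh7 ranged from -1.06 to -0.73, Myl2 from -1.14 to -0.32 and Tpm1 1447713_at from 0.82 to 1.15. Mybpc3 and Tnnc1, which did not pass after quantile normalization, passed as lower under the other 4, reaching -0.77 and -0.83 with the trimmed mean. The same held for Myl3 1427768_s_at, Tnnt2 1424967_x_at and Ttn 1427446_s_at, which reached -0.97, -0.87 and -0.67.

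Against B6, treated hearts had 7 probe sets lower under all 5 scalings and 0 higher, against 1.81% and 6.54% of all tested, and 0 that passed in both directions, against 0.190%: Myh7, Myl2, Myl3 1427769_x_at and 1428266_at, Tnni3, Tpm1 1423049_a_at and Ttn 1427446_s_at. Between untreated apoE-deficient and B6 hearts, Tnnt2 1440424_at (-1.27 to -1.03) and Tpm1 1447713_at (-0.78 to -0.50) were lower under all 5, and 0 were higher, against 2.08% and 1.27% of all tested. The scalings themselves differ in where they put 0: the median over all tested probe sets, treated minus untreated, was 0.18 with the hybridization controls and 0.24 with array medians, so relative to all probe sets the falls of the members were larger there and the rises smaller by those amounts.

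**Figure D4:**
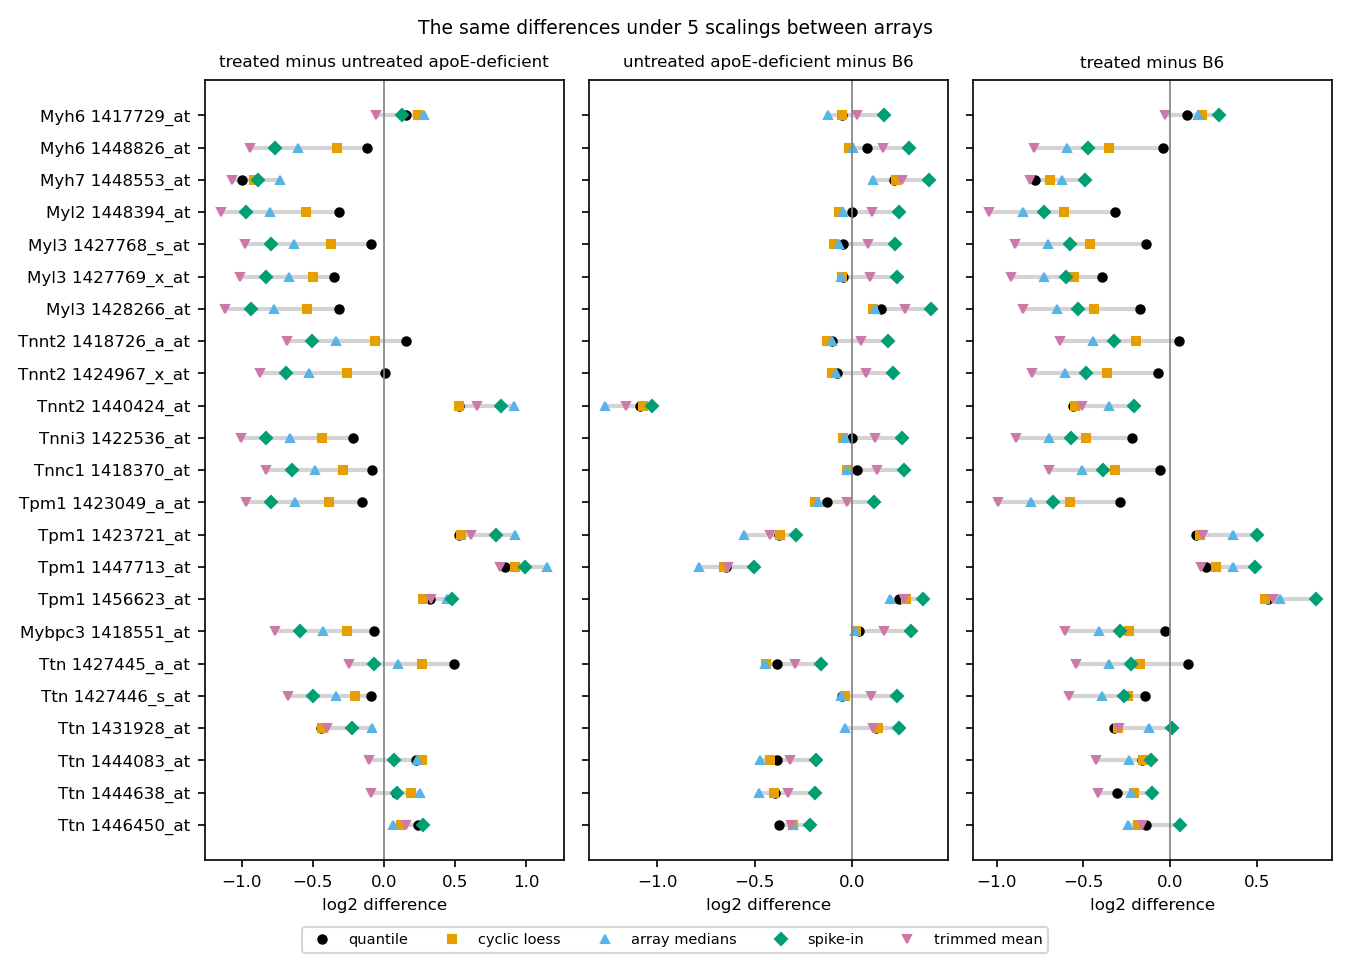
Log2 differences (horizontal axes) of the 23 probe sets in the 3 comparisons under 5 scalings between arrays; each symbol is 1 scaling, and the grey line joins the lowest and highest. Myh7 stays between -1.06 and -0.73 for treated minus untreated, whereas Myl2 spans -1.14 to -0.32 and Ttn 1427445_a_at crosses 0, from -0.25 to 0.49.

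The reason for setting scalings side by side is visible in the deposited signals. The trimmed means of the treated arrays exceeded those of the untreated by 1.23 on the log2 scale, but the deposited signal of Myl2 differed by only 0.082, that of Myh7 by 0.16, those of the Myl3 probe sets by 0.11 to 0.25 and that of Tnni3 by 0.22. Tpm1 1447713_at differed by 2.05, Tnnt2 1440424_at by 1.93 and Tpm1 1423721_at by 1.86, all more than the trimmed means. The dimmest members, Tpm1 1456623_at (1.63) and Ttn 1446450_at (1.48), also differed by more than the trimmed means. Of the 23 probe sets, 12 had a mean signal above 10000, and on each array 3 to 6 were among the 10 brightest of all and 7 or 8 among the 50 brightest. With trimmed-mean scaling the median difference, treated minus untreated, was -0.96 over these 12 and -0.054 over the other 11, and Spearman's rho between brightness and difference was -0.69 over the 23. After quantile normalization the medians were -0.10 and 0.22 and rho was -0.40. These are descriptions of probe sets that share arrays and genes. For treated minus B6 rho was -0.75 with the trimmed mean and 0 after quantile normalization (medians of -0.10 and -0.14), and for untreated minus B6 it was 0.30 and 0.19. The relation of brightness to the difference thus varied with the comparison and the scaling, and whether the brightest signals are compressed near the top of the scanner's range was not tested. Myh7, at a signal of 1404 to 1936, is not among the 12.

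**Figure D5:**
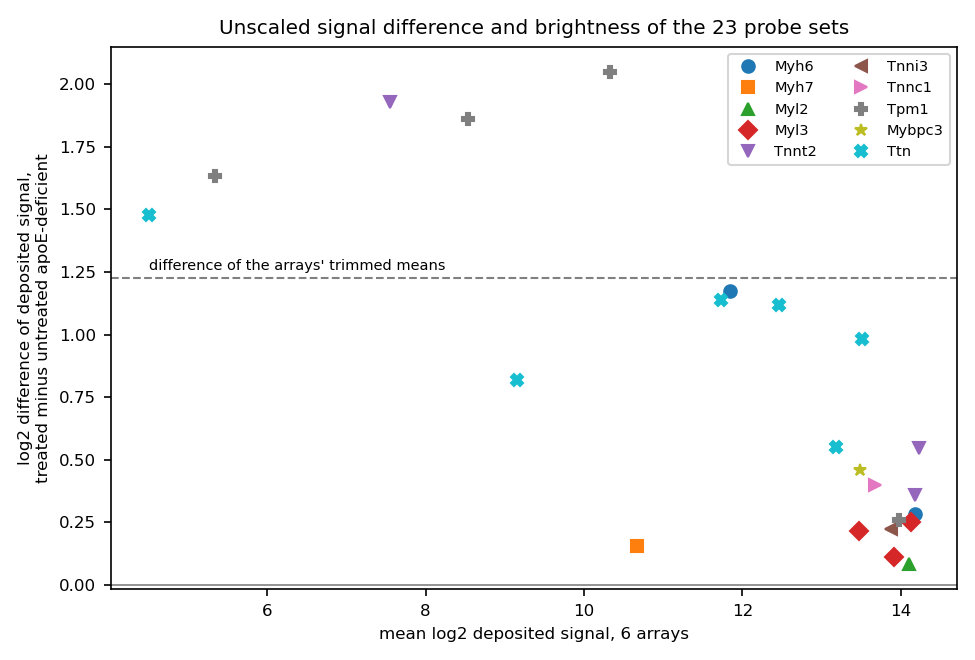
Log2 difference of the deposited, unscaled signal between treated and untreated apoE-deficient hearts (vertical axis) against the mean log2 deposited signal over 6 arrays (horizontal axis) for the 23 probe sets, coloured by gene; the dashed line is the difference of the arrays' trimmed means, 1.23. Bright probe sets lie below the dashed line, as does Myh7 at 0.16, and Tpm1 1447713_at (2.05), Tnnt2 1440424_at (1.93) and Tpm1 1423721_at (1.86) lie above it. The dimmest members, Tpm1 1456623_at (1.63) and Ttn 1446450_at (1.48), lie above it too.

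Within a gene, the ratio of a dimmer to a brighter probe set on the same array is free of any whole-array factor. For Tpm1, the log2 ratio of 1447713_at to 1423049_a_at was -2.35 and -2.99 in treated, -4.56 and -4.36 in untreated and -3.75 and -3.94 in B6 hearts, a change of 1.79 from untreated to treated. For Tnnt2, that of 1440424_at to 1418726_a_at was -6.15 and -6.22, -7.56 and -7.57, and -6.26 and -6.31, a change of 1.38. For Ttn, that of 1444083_at to 1427446_s_at was -0.47 and -0.50, -1.09 and -1.02, and -0.60 and -0.67, a change of 0.57. In these 3 pairs, chosen after their values were seen, the untreated arrays were the lowest and did not overlap with the others. Over all 28 pairs of probe sets of 1 gene, with the dimmer over the brighter, the untreated arrays were the lowest in 8, the highest in 6 and neither in 14. Titin had 2 pairs of the first kind and 3 of the second, among them 1427446_s_at to 1427445_a_at, at 0.0087 and -0.13 in untreated hearts and -0.50 to -0.44 in the others, and tropomyosin had 2 of each. For Myh6 the ratio of 1417729_at to 1448826_at was -1.61 and -1.97, -2.73 and -2.62, and -2.48 and -2.60, highest in the treated hearts. Whether the probe sets of a gene read different transcripts or differ in their response to signal was not tested.

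Other sarcomere, Z-disc and M-band genes moved in both directions. Of 28 tested, 5 rose and 12 fell from untreated to treated hearts, 6 rose and 2 fell from B6 to untreated, and 5 rose and 10 fell from B6 to treated. Of all 27022 probe sets tested, 2703 rose and 2652 fell in the first comparison, 856 and 1053 in the second, and 2017 and 2049 in the third. The same background applies to the gene lists that follow. Whether the brightness of the listed genes raised their counts was not tested. The counts of the listed genes depended on the scaling between arrays, as did those of all probe sets. From untreated to treated hearts 2 of the 28 rose and 20 fell with the trimmed mean. From B6 to untreated 3 rose and 6 fell with array medians, and 15 rose and 1 fell with spike-in controls. From B6 to treated 8 rose and 8 fell with spike-in controls. Actc1, cardiac actin, read 13.83 and 13.95 in treated, 14.15 and 14.13 in untreated and 14.29 and 14.29 in B6 hearts, and fell by 0.40 from B6 to treated hearts (limma adjusted p = 0.000229). Myom2, an M-band protein, was 0.38 lower in treated than in B6 hearts (difference -0.38, limma adjusted p = 0.000293), and the falls of both genes passed under all 5 scalings. Xirp1, an actin-binding protein of the intercalated disc, was higher in untreated than in B6 hearts (0.49, limma adjusted p = 0.00240) and lower in treated than in untreated (-0.69, 9.01e-05). Myot, a Z-disc protein, rose in both steps, with 10.05 and 9.97 in B6, 10.77 and 10.67 in untreated and 11.32 and 11.33 in treated hearts. Mybphl, a relative of Mybpc3 known from atrial muscle, read 10.69 and 10.77 in treated, 8.30 and 8.58 in untreated and 9.83 and 9.73 in B6 hearts. The group means of Tpm1 1447713_at had the same order, but its treated and B6 arrays overlapped.

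Of 9 tested chaperones and ubiquitin ligases that serve the sarcomere, 2 rose and 4 fell from untreated to treated hearts, and 4 rose and 2 fell from B6 to untreated. Bag3, a co-chaperone of filamin turnover, read 11.34 and 11.42 in treated, 12.01 and 11.99 in untreated and 11.61 and 11.65 in B6 hearts. Its partner Hspb8 and the ligase Trim54 were likewise highest in untreated hearts, with differences for treated minus untreated of -0.47 and -0.50 beside -0.61 for Bag3. Trim63, the ligase MuRF1, went the other way, lower in untreated than in B6 hearts (-0.44, limma adjusted p = 0.00454) and higher in treated than in untreated (0.53, 0.000498). These values for Bag3, Hspb8, Trim54 and Trim63 passed under all 5 scalings in both comparisons.

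The isoforms that replace the ventricular proteins in the fetus, the atrium or skeletal muscle moved mostly upward in treated hearts where they passed. Of 19 listed, 11 were tested. From untreated to treated hearts 6 rose and 0 fell, with a median of 0.26 beside -0.016 over all tested, and 6 and 0 from B6 to treated, with 0.46 beside -0.023. With the trimmed mean the first count was 5 and 1. From B6 to untreated hearts 2 rose and 2 fell, with a median of -0.0025 beside -0.0064, and with array medians 1 rose and 4 fell. The atrial light chain Myl4 read 13.20 and 13.24 in treated, 11.56 and 11.59 in untreated and 12.52 and 12.58 in B6 hearts, and Myl7 13.44 and 13.42, 11.92 and 11.92, and 12.93 and 12.92. They were higher in treated than in untreated hearts by 1.65 and 1.51 and lower in untreated than in B6 (-0.98 and -0.998), and both differences passed under all 5 scalings. These genes are also on the list of atrial markers, whose sum followed the same order, as given above. Acta1, skeletal actin, often re-expressed in stressed heart muscle, was higher than in B6 in untreated (0.75, limma adjusted p = 9.87e-06) and treated hearts (1.01, 4.98e-07) under all 5 scalings, while its difference of 0.26 between treated and untreated turned to -0.26 with the trimmed mean. In these treated hearts Myh7 was at 0.582 times its B6 level.

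Of 19 tested regulators of sarcomere genes, 5 rose and 5 fell from untreated to treated hearts, 0 rose and 6 fell from B6 to untreated, and 2 rose and 5 fell from B6 to treated. These counts depended on the scaling. From untreated to treated 8 rose and 1 fell with spike-in controls, and 9 rose and 0 fell with array medians. Under all 5 scalings 5 rose and 0 fell. With spike-in controls 3 rose and 2 fell from B6 to untreated, and 4 rose and 1 fell from B6 to treated. Gata4, a cardiac GATA factor, read 9.37 and 9.41 in treated, 9.83 and 9.82 in untreated and 9.92 and 9.94 in B6 hearts, and was lower in treated hearts than in B6 under all 5 scalings (-0.54, limma adjusted p = 0.000544). Tbx20, a T-box factor of the heart, rose by 0.55 from untreated to treated (limma adjusted p = 0.000372) and Mef2c by 0.35 (0.00696), both under all 5 scalings, while Srf, which binds the CArG element, was lower by 0.47 (difference -0.47, 0.00895) under 3 of 5. Of 24 other cardiomyocyte genes for calcium handling and energy, 10 rose and 6 fell from untreated to treated hearts, and 7 of the 24 passed in opposite directions under different scalings.

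The genes whose brightest probe set followed Myh7 most closely over the 6 arrays, among 13226 genes compared by Pearson's r, were Thap4 (0.999), Trappc5 (0.997), and 1700001G11Rik, Aldh4a1 and Zbtb43 (0.996 each). Their log2 differences for treated minus untreated were -0.56, -0.33, -0.56, -0.62 and -0.28 in that order. With 6 arrays in 3 groups, such values describe a shared order of the groups.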

How the data were processed

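Intensity values as deposited were linear signals of 45101 probe sets on each of 6 Affymetrix arrays, made with GCOS per the submitters' processing notes; GCOS version and scaling settings: not given in the sources used here. The 64 control probe sets were left out of the tests and the remaining 45037 were quantile-normalized in R 4.3.3. After log2 with a pseudocount of 11.104 (the 25th percentile), probe sets with a mean above the 40th percentile (4.99) were tested with limma 3.58.1 (lmFit, eBayes with intensity trend, 3 groups in 1 fit, 3 residual and 5.97 prior degrees of freedom) and adjusted by Benjamini-Hochberg over 27022. Symbols came from GEO's platform annotation, which can be old, updated by gene number for 34741 probe sets; 34945 had 1 symbol, 932 several and 9160 none. Two-symbol probe sets of Myh6 and Myh7 were not members. Probe set precision is limited by 2 arrays per group.

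The members and gene lists were chosen with earlier results of these data known. Named were all members and, of other lists, up to 4 genes with the smallest p in a comparison. The fit was tested on simulated data. Alternatives were other scalings, pseudocount, filter and trend settings, a replicate block and leaving out each array, cyclic loess being added after the data were seen.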

Additional observations from a re-analysis of the deposited data

Results flagged for a closer look

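Outside the 23 probe sets, 2 more are annotated to both Myh7 and Myh6 and so read the 2 heavy chains together. They were flagged as signal in data that the comparisons did not use, being above the B6 level in the untreated apoE-deficient hearts, by 0.178 (0.17835 unrounded) for 1448554_s_at and by 0.0874 for 1448827_s_at on the log2 scale, neither of which passed (limma adjusted p = 0.107 and 0.177). 1448554_s_at read 13.87 and 14.07 in treated, 14.25 and 14.29 in untreated and 14.06 and 14.13 in B6 hearts. 1448827_s_at read 12.24 and 12.24, 12.53 and 12.53, and 12.45 and 12.43 in the same order. From untreated to treated hearts both fell, with differences of -0.30 (limma adjusted p = 0.00647) and -0.29 (0.000542), beside -0.997 for the Myh7 probe set and -0.12 and 0.15 for those of Myh6. Against B6 the difference was -0.20 (0.00450) for 1448827_s_at, and -0.12 (0.214) for 1448554_s_at did not pass.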

How the results depend on the processing

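Myh7 kept its call and its sign in both comparisons with treated hearts under every tested alternative but that with no scaling, where its differences were 0.15 (limma adjusted p = 0.476) and 0.076 (0.737). With the sarcomere median set to 0, which has no test, Ttn 1431928_at changed sign for treated minus untreated (0.27), and for treated minus B6 so did Tnnt2 1440424_at (0.071) and Ttn 1427446_s_at (0.022), 1431928_at (0.30), 1444083_at (0.17) and 1444638_at (0.19). For treated minus untreated, Tnnt2 1418726_a_at turned to -0.68 (trimmed mean), -0.50 (spike-in), -0.34 (array medians) and -0.065 (cyclic loess), Ttn 1427445_a_at to -0.25 (trimmed mean) and -0.067 (spike-in) and Ttn 1444083_at to -0.11 (trimmed mean). For treated minus B6, Ttn 1431928_at turned to 0.013 with spike-in scaling.

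Members called, treated minus untreated, were 6 higher and 8 lower, and became 3 and 15 with the trimmed mean, 3 and 13 with spike-in controls, 6 and 13 with array medians, 7 and 13 with cyclic loess, 16 and 0 with no scaling, and 1 and 1 with no intensity trend; leaving out 1 array gave 4 to 6 higher and 5 to 9 lower. Untreated minus B6 had 0 and 5, which became 5 and 2 (spike-in) and 0 and 0 (no trend), with 0 to 1 and 4 to 6 when 1 array was left out. Treated minus B6 had 0 and 11, which became 0 and 17 (trimmed mean and cyclic loess), 3 and 14 (spike-in), 8 and 0 (no scaling) and 0 and 1 (no trend), with 0 to 2 and 5 to 11 when 1 array was left out. With no scaling, 22755 of all 27022 probe sets tested were called for treated minus untreated, and 18758 for treated minus B6. Almost all of these calls were higher, and both shares exceed those of the members, 16 and 8 of 23. The cause of these moves of the member counts was not tested.

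Over all probe sets, calls of treated minus untreated, 5355, became 8117 (array medians) and 1653 (no trend), with 2944 to 4996 when 1 array was left out. Those of untreated minus B6, 1909, became 3045 (spike-in) and 10 (no trend), with 614 to 1729. Those of treated minus B6, 4066, became 7614 (spike-in) and 626 (no trend), with 2192 to 4120. In the order of these comparisons the calls were 5936, 2135 and 4272 with the trimmed mean and 5484, 2002 and 4116 with cyclic loess. With no scaling they were 22755, 1548 and 18758. In the same order the share of calls that were higher was 50.5%, 44.8% and 49.6%, against 79.6%, 81.0% and 92.5% with spike-in controls and 89.0%, 14.7% and 76.6% with array medians. The median of all tested moved to 0.18, 0.11 and 0.28 with spike-in controls, 0.24, -0.13 and 0.11 with array medians, and 1.13, -0.32 and 0.81 with no scaling.

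The Myh7 to Myh6 change, treated minus untreated (-0.13), was -1.02 with the other Myh6 probe set, -1.16 with that one after quantile normalization and -0.89 with the brightest one after it. Untreated minus B6 (0.10) became 0.27 with the other probe set after normalization. Treated minus B6 (-0.026) became -0.78, -0.89 and -0.74 in the order of the first comparison.

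Replicate numbers are shared by the groups, but arrays of 1 number did not deviate together (r of -0.0063, 0.020 and 0.033), so they are not treated as paired. With a replicate block the calls were 5344, 1937 and 4103 over all probe sets. Among members 1 more passed as higher in untreated than in B6 hearts, Myl3 1428266_at at 0.15, and for treated minus B6 Myl3 1427768_s_at was gained and Ttn 1431928_at lost.

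With 2 arrays a group precision is limited, and the dimmest members, Ttn 1446450_at and Tpm1 1456623_at, had SEs of 0.44 and 0.30.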
